A study of Mus musculus with 15 samples.

Results

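The genes described here make, move, sense or break down the monoamines noradrenaline, dopamine and serotonin in the mouse heart. They are 9 of the 18350 genes named on the arrays, taken by symbol: Th, Ddc and Dbh for synthesis, Slc6a2, Slc18a2 and Slc22a3 for transport, Maoa and Maob for breakdown, and Taar1 as a receptor. Each had at least 1 probe, and the 9 genes had 11 probes in all, with Ddc and Slc18a2 read by a pair of probes each.

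Hearts of C57BL/6 mice were profiled on 15 Agilent arrays with a single dye, 1 animal per array as the sample descriptions give it. Male and female mice had weekly intraperitoneal injections of methamphetamine hydrochloride (meth) over 5 months, the last at 40 mg/kg, and control mice had phosphate-buffered saline (PBS) on the same schedule. There were 4 arrays of male meth, 4 of male PBS, 4 of female meth and 3 of female PBS hearts. The male arrays came from trial 1 and trial 2, with 2 arrays per group in each, and the titles put the female arrays in trial 1. For female meth replicates 3 and 4 and female PBS replicate 3 the title says trial 1 and the source name says trial 2, and the study's methods describe a single trial of females, as the titles do. Slides 1 and 2 each held 1 trial 1 array of every group, slide 3 held the 4 male trial 2 arrays, and slide 4 held the 3 female arrays whose trial is named both ways. Slides 1 and 2 shared a scan session, and slides 3 and 4 each had their own. Hearts were collected at the end of dosing, so each array describes an animal alive at that time.

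Noradrenaline is made in sympathetic nerve fibers that run through the heart, where it raises rate and force of beating. The nerve cell bodies lie outside the heart, in ganglia, and mRNA of the enzymes is found mostly there. Methamphetamine enters monoamine nerve endings, displaces the transmitter from its vesicles and drives it out through the uptake transporter, and organic cation transporters and monoamine oxidases of non-neuronal cells clear and degrade what is released.

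All values are log2 signal relative to the array's 75th percentile, so 0 is a bright probe, and they compare arrays for one probe, not one gene with another. The hearts carried their label: all 8 cardiomyocyte markers were well above background on all 15 arrays, with list means of 7.92 in male meth, 7.99 in male PBS, 7.82 in female meth and 7.78 in female PBS.

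Detection divided the 9 genes. Maoa, Maob, Ddc and Slc18a2 were well above background on all 15 arrays, Slc22a3 on 12, Dbh on 4, Slc6a2 on 2, Th on 1 and Taar1 on 0. Of these detections 3 of the 4 for Dbh, 1 of the 2 for Slc6a2 and the 1 for Th were on slide 4, where 67.6% to 71.4% of probes were well above background, against 61.3% to 65.2% on the other slides. A probe was tested when at least 3 arrays measured it, which left 6 of the 9 genes tested and Th, Slc6a2 and Taar1 untested. The tested set was 28358 probes of 14220 genes, of which 23808 probes were measured on all 15 arrays. In bulk tissue fewer cells of a type and less RNA per cell cannot be told apart.

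**Figure D1:**
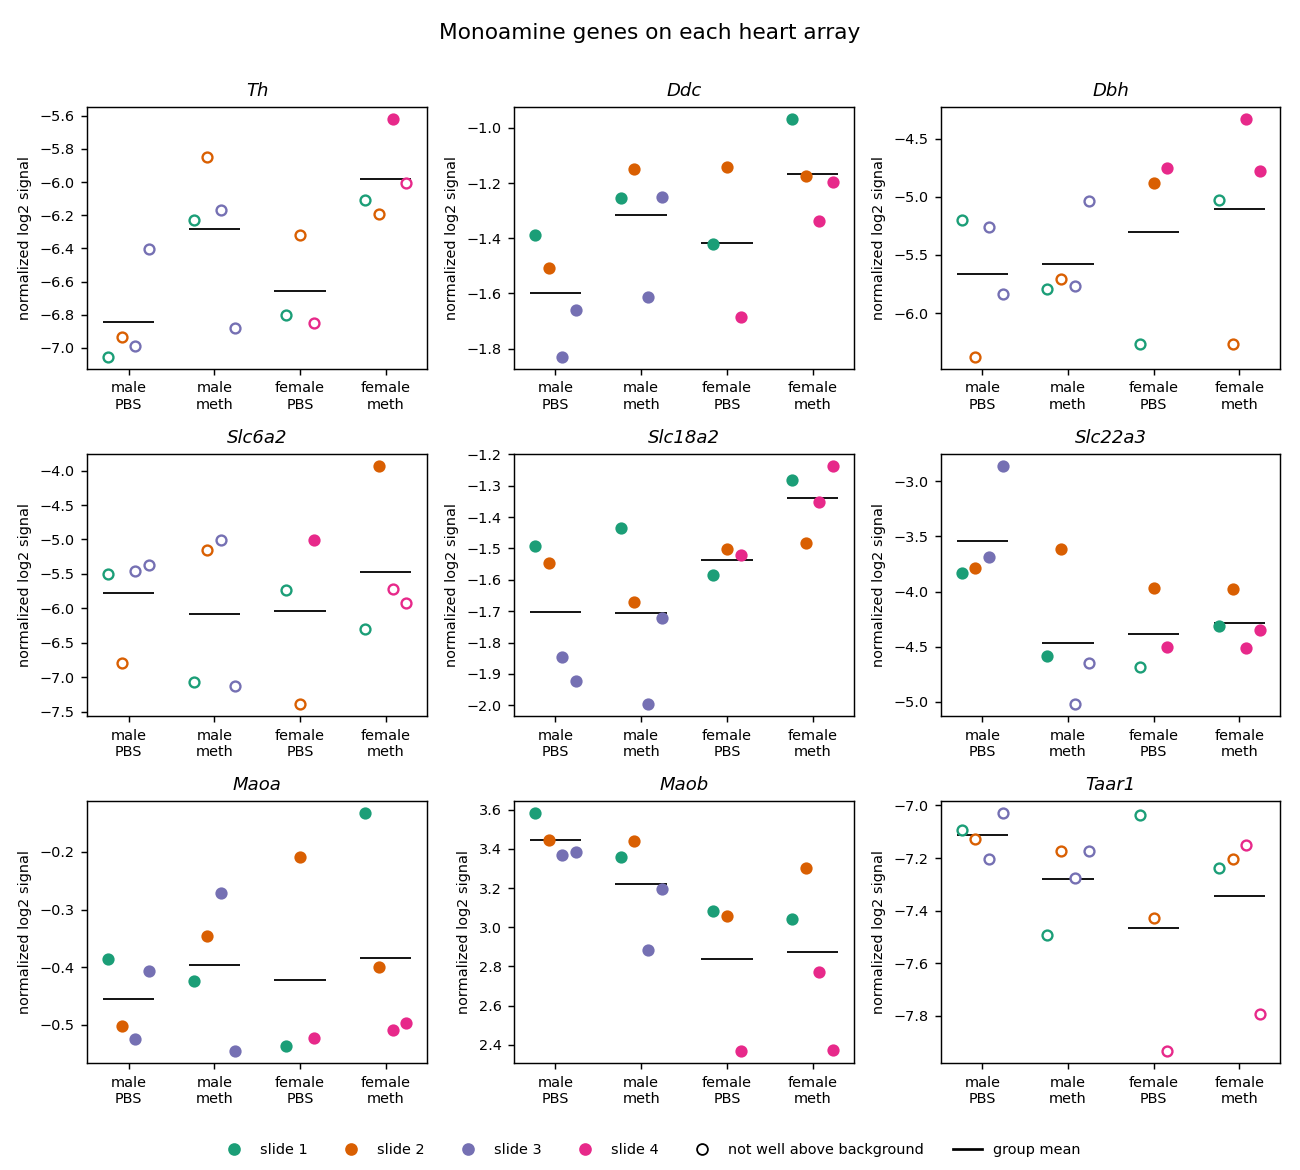
Level of each gene on each of the 15 arrays by group, with arrays below background marked apart. Ddc ran from -1.83 to -0.97 and Slc22a3 from -5.02 to -2.86.

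Th encodes tyrosine hydroxylase, the first enzyme of catecholamine synthesis. Its probe lay between -7.05 and -5.62 over the 15 arrays. The array that measured it was female meth replicate 3, at -5.62, where 5 of its 10 spots were well above background. No fold change is given for Th, since at most 1 array in any group measured it.

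Ddc encodes aromatic L-amino acid decarboxylase, which turns L-DOPA into dopamine and 5-hydroxytryptophan into serotonin. In male meth hearts its level was -1.25 and -1.15 in trial 1 and -1.61 and -1.25 in trial 2. In male PBS hearts it was -1.39 and -1.51 in trial 1 and -1.83 and -1.66 in trial 2. Within each male trial both meth hearts lay above both PBS hearts, and across trials the groups overlapped because the lowest meth heart, of trial 2, lay below the trial 1 controls. Female meth hearts, replicates 1 to 4, read -0.97, -1.17, -1.34 and -1.20. Female PBS hearts, replicates 1 to 3, read -1.42, -1.14 and -1.69. One female control, replicate 2, sat among the meth hearts, and the other controls were lower than every meth heart.

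The fitted difference for Ddc in males was 0.28 with a standard error of 0.12 (limma, adjusted p 0.360, unadjusted p 0.040), with 3 of 4 meth hearts above every control. In females it was 0.25 with a standard error of 0.13 (limma, adjusted p 0.540, unadjusted p 0.0843), or 0.26 with the replicate number as a block (adjusted p 0.331). Leaving out female PBS replicate 3 gave 0.11 in females, and leaving out replicate 2 of those controls gave 0.38. The mean response of both sexes was 0.26 with a standard error of 0.09 (limma, adjusted p 0.165, unadjusted p 0.0121), and the male minus female difference was 0.03 (adjusted p 0.974). Within slides, meth minus PBS for Ddc was 0.14, 0.36 and 0.31 on slides 1, 2 and 3 in males and 0.45, -0.03 and 0.42 on slides 1, 2 and 4 in females, so meth was higher in 5 of 6 comparisons. Between the control groups Ddc was close, with male PBS minus female PBS at -0.05 (adjusted p 0.901).

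The second Ddc probe gave 0.34 in males (limma, adjusted p 0.256), 0.18 in females (limma, adjusted p 0.714) and 0.26 as the mean of both sexes (adjusted p 0.175), again with meth higher in 5 of 6 within-slide comparisons. It differed from the other probe in the control groups: male PBS was below female PBS by -0.37 (limma, adjusted p 0.260, unadjusted p 0.0254), with all 4 male controls under all 3 female controls. It differed in male trial 2 as well, where meth replicate 1, at -4.17, lay below both PBS hearts, at -4.11 and -4.14. The pair of Ddc probes correlated at r 0.59 over the 15 arrays, and at 0.15 once each group's mean was taken out.

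Dbh encodes dopamine beta-hydroxylase, which makes noradrenaline from dopamine inside vesicles. None of the 8 male arrays measured it. Among female meth hearts it read -5.03, -6.27, -4.33 and -4.78, of which replicates 3 and 4 were well above background. Among female PBS hearts it read -6.26, -4.88 and -4.75, of which replicates 2 and 3 were well above background. The groups overlapped throughout, and the female difference was 0.20 with a standard error of 0.47 (limma, adjusted p 0.944).

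Slc6a2 encodes the noradrenaline transporter of sympathetic nerve endings. It was measured in female meth replicate 2 at -3.93 and in female PBS replicate 3 at -5.01, and its values over the 15 arrays ran from -7.39 to -3.93. With 1 array per female group and 0 of 8 male arrays, no fold change is given.

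Slc18a2 encodes VMAT2, the vesicular monoamine transporter, which loads monoamines into vesicles of nerve endings, mast cells and platelets and is a direct target of methamphetamine. Female meth hearts read -1.28, -1.48, -1.35 and -1.24 for replicates 1 to 4. Female PBS hearts read -1.58, -1.50 and -1.52 for replicates 1 to 3. All 4 meth hearts lay above all 3 controls, with replicate 2 of both groups the closest, 0.02 apart on their slide. Male meth hearts read -1.44 and -1.67 in trial 1 and -2.0 and -1.72 in trial 2. Male PBS hearts read -1.49 and -1.55 in trial 1 and -1.84 and -1.92 in trial 2. The male groups were intermixed, and in these readings trial 2 hearts of both groups were lower than trial 1 hearts.

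The female difference for Slc18a2 was 0.20 with a standard error of 0.09 (limma, adjusted p 0.439, unadjusted p 0.0454), with 0.30, 0.02 and 0.23 on slides 1, 2 and 4, and 0.16 with the replicate block (adjusted p 0.455). The male difference was -0.0044 (adjusted p 0.990), with 0.06, -0.12 and 0.02 on slides 1, 2 and 3. For the male minus female response the fit gave -0.20 (limma, adjusted p 0.677, unadjusted p 0.120). Its second probe gave 0.22 in males (adjusted p 0.623). For females this probe gave 0.26 (adjusted p 0.654), and 2 of 4 meth hearts exceeded every control. These probes correlated at r 0.84 over the 15 arrays.

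The probes that stand for Ddc and Slc18a2 correlated over the 15 arrays, with r 0.66, a Spearman correlation of 0.57, 0.69 within slides and 0.59 within groups. Other probe combinations of these genes were looser: the same Ddc probe and the second Slc18a2 probe gave 0.48 and 0.09 within groups, and the second Ddc probe gave 0.62 and 0.60 with the Slc18a2 probes, 0.41 and 0.14 within groups. Other gene pairs correlated too. Maob and the first Ddc probe gave 0.65 within groups, though 0.0050 over the arrays. Maob and the second Slc18a2 probe gave -0.68 over the arrays and -0.45 within groups. The points share slides, trials and the array's scaling. Because their first probes moved together, their promoters are shown, from 250 bases before to 50 after the start given by RefSeq in build GRCm38.p6, each read along its gene's strand. Of the 9 genes, 6 had a window, 7 windows in all, Ddc having a pair on the minus strand at chr11:11898095-11898394 and chr11:11890359-11890658 and Slc18a2 having 1 on the plus strand at chr19:59260628-59260927. Capitals mark matches on either strand to the cAMP response element TGACGT, the GC box GGGCGG, the CCAAT box CCAAT and the TATA box TATAAA.
Ddc, chr11:11898095-11898394: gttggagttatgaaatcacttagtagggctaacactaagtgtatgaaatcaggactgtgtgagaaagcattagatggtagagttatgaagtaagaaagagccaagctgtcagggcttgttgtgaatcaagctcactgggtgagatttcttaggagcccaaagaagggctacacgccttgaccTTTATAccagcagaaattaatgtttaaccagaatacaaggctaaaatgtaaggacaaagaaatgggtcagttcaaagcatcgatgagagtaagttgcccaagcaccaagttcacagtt
Ddc, chr11:11890359-11890658: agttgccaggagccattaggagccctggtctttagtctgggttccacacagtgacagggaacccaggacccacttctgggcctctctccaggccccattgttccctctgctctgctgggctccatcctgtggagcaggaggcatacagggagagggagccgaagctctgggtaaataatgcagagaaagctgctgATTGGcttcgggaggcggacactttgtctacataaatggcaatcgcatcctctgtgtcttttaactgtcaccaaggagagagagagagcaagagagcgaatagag
Slc18a2, chr19:59260628-59260927: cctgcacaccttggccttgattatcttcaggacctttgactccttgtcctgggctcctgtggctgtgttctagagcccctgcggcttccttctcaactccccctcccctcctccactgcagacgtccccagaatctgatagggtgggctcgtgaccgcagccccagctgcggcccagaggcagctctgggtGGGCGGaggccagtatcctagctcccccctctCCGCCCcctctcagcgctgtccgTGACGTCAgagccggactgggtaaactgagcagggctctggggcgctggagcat
The Slc18a2 window held matches to the cAMP response element on both strands, overlapping at -4 and -2 from the start, and GC box matches at -59 and, on the other strand, -27. The Ddc windows held a TATA box match on the other strand at -68 and a CCAAT box match on the other strand at -55. Among all 32851 windows 7.51% held the cAMP response element, 35.7% the GC box, 37.4% the CCAAT box and 13.6% the TATA box. No motif was found in all 3 windows, and a match is a description of letters, not of binding.

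Slc22a3 encodes organic cation transporter 3, a low-affinity, high-capacity carrier on cells outside the nerve that takes up noradrenaline after release. With meth, male hearts read -4.58 and -3.61 in trial 1 and -5.02 and -4.64 in trial 2, the trial 2 pair being below background. With PBS, male hearts read -3.83 and -3.78 in trial 1 and -3.69 and -2.86 in trial 2, all measured. Of the meth hearts 3 lay below every control, while trial 1 replicate 2 was the highest meth heart and lay above 3 of the 4 controls. Female meth hearts read -4.31, -3.97, -4.52 and -4.35, all measured. Female PBS hearts read -4.69, -3.97 and -4.50, with replicate 1 below background. The female groups overlapped, and every male control was brighter than every female heart of either group.

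The male difference for Slc22a3 was -0.92 with a standard error of 0.30 and a 95% interval from -1.57 to -0.28 (limma, adjusted p 0.202, unadjusted p 0.00877). It was unevenly spread: -0.75 on slide 1, 0.17 on slide 2 and -1.56 on slide 3, or -0.29 over trial 1 and -1.56 over trial 2. In trial 2, all of it on slide 3, 0 of 2 meth hearts measured the probe. Its -1.56 is therefore not a size. With the dim readings taken as upper limits, meth was at least 2.94-fold lower than PBS in these hearts. For that bound each dim array was given its own signal or, where higher, the lowest signal among probes well above background, and the mean of the brighter group over all its replicates was divided by the mean of these. Both dim arrays read above that lowest signal, so nothing was raised and the bound is the plain difference of the readings, -1.56. Its PBS mean holds the stray -2.86 of replicate 2, with the other control at -3.69. With normexp background correction the male difference over both trials was -0.20, and the bound was not recomputed with it. In females the difference was 0.10 (adjusted p 0.959), with 0.38, -0.0020 and 0.07 on slides 1, 2 and 4. The responses of the sexes differed by -1.02 (limma, adjusted p 0.562, unadjusted p 0.0368), and the mean of both was -0.41 (adjusted p 0.419), or -0.27 without male PBS trial 2 replicate 2. Without the drug, male PBS exceeded female PBS by 0.90 with a standard error of 0.35 (limma, adjusted p 0.261, unadjusted p 0.0255), 0.86 on slide 1 and 0.19 on slide 2, and 4 of 4 male controls were above all 3 female controls. Normexp correction shrank these differences too, to 0.34 between control groups, -0.39 for male minus female and -0.0028 for the mean of both sexes.

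**Figure D2:**
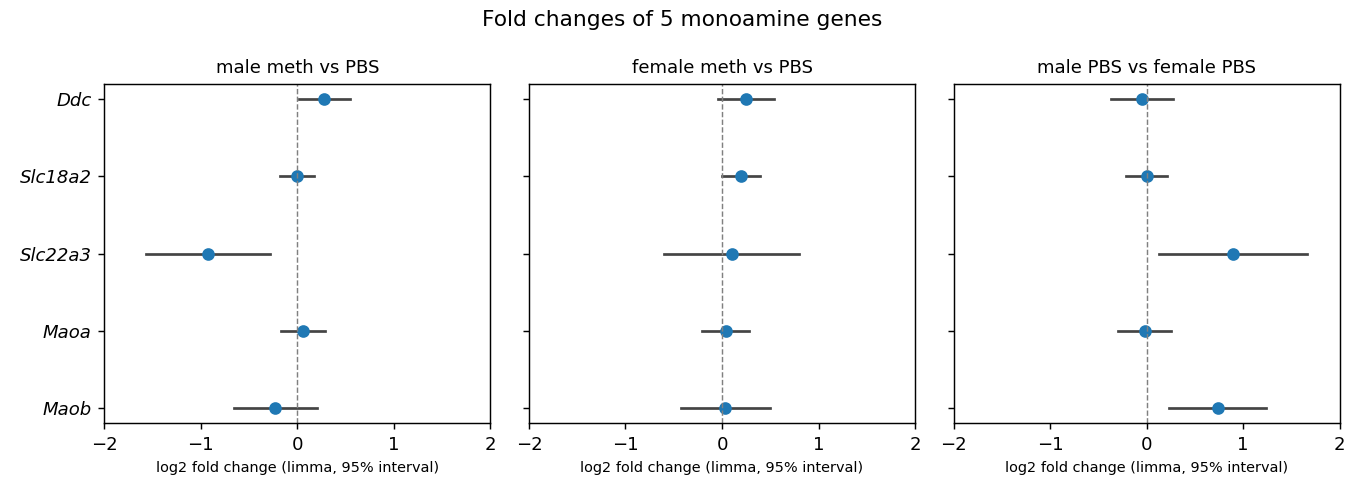
Log2 differences with 95% intervals for 5 tested genes, for meth in each sex and between control groups. Slc22a3 gave -0.92 in males and 0.10 in females, and Ddc 0.28 and 0.25.

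Maoa encodes monoamine oxidase A, an X-linked enzyme of the outer mitochondrial membrane that oxidizes noradrenaline and serotonin. Its 15 values lay within a narrow band, from -0.55 to -0.27 in male meth, -0.53 to -0.39 in male PBS, -0.51 to -0.13 in female meth and -0.54 to -0.21 in female PBS. Groups overlapped in every comparison. The difference was 0.06 in males (95% interval from -0.17 to 0.29, adjusted p 0.871) and in females 0.04 (95% interval from -0.21 to 0.28, adjusted p 0.956). Between control groups it was -0.02 (95% interval from -0.29 to 0.25, adjusted p 0.954), all by limma.

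Maob, beside Maoa on the X chromosome, encodes monoamine oxidase B, which oxidizes phenylethylamine and dopamine. In male meth hearts it was 3.36 and 3.44 in trial 1 and 2.88 and 3.20 in trial 2. In male PBS hearts it was 3.58 and 3.45 in trial 1 and 3.37 and 3.39 in trial 2. Of the male meth hearts 3 lay below every male control, and trial 1 replicate 2 lay among them. Female meth hearts read 3.04, 3.30, 2.77 and 2.37. Female PBS hearts read 3.08, 3.06 and 2.37. All 4 male controls were brighter than all 7 female hearts, and the lowest female values, 2.77, 2.37 and 2.37, were the arrays of slide 4.

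For Maob male PBS exceeded female PBS by 0.73 with a standard error of 0.23 and a 95% interval from 0.23 to 1.24 (limma, adjusted p 0.183, unadjusted p 0.00812), 0.50 on slide 1 and 0.39 on slide 2. Without female PBS replicate 3 it was 0.50. With the trial taken from the source name it was 0.68 with an adjusted p of 0.0446, the one setting of those tried that brought a tested member past the threshold. The meth response of Maob was -0.23 in males (adjusted p 0.686), with -0.23, -0.01 and -0.34 on slides 1, 2 and 3, and was -0.14 without male meth trial 2 replicate 1. In females it was 0.04 (adjusted p 0.978), with -0.04, 0.24 and 0.20 on slides 1, 2 and 4, 0.20 with the replicate block (adjusted p 0.456) and -0.20 without female PBS replicate 3.

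Taar1 encodes trace amine-associated receptor 1, a receptor that methamphetamine activates. No array measured it, its signals ran from -7.94 to -7.03, and no fold change is given.

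Counted together, 0 of the 6 tested members passed an adjusted p of 0.05 in any of the 5 limma comparisons. At an unadjusted p under 0.05 limma gave Ddc and Slc22a3 in males, Slc18a2 in females, Slc22a3 for male minus female, Ddc for the mean of both sexes, and Maob and Slc22a3 between control groups. Over all probes the share at an unadjusted p under 0.05 was 12.8% in males (3640), 11% in females (3129), 8.67% for male minus female (2458), 15.3% for the mean of both sexes (4349) and 15.2% between control groups (4314), beside 2, 1, 1, 1 and 2 of 6 members. Over all 28358 probes limma called 314 (1.11%) in males, 215 (0.758%) in females, 39 (0.138%) for male minus female, 751 (2.65%) for the mean of both sexes and 136 (0.48%) between control groups. With shares that low, 0 of 6 is near the background and is not a result about the members. With replicate number as a block the counts were 157, 101, 0 and 571 for the first 4 comparisons, with 4155 probes at an unadjusted p under 0.05 where limma's count was 0. With slide as a block they were higher, at 525, 411, 51 and 1253. By the methods' t-test paired by replicate number 0 probes passed in males and 0 in females after adjustment, against 4313 and 2817 at an unadjusted p under 0.05, and unpaired 18 passed in males and 0 in females, against 3769 and 2350.

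The median difference over members measured in both groups was -0.0044 for 5 members in males, 0.15 for 6 in females and 0.0023 for 5 between control groups, beside -0.03, 0.00065 and -0.03 over all probes. Groups did not overlap for 0 of 6 members in males (9.86% of all probes), for Slc18a2, 1 of 6, in females (9.07%), and for Maob and Slc22a3, 2 of 6, between control groups (14.7%). Dbh is among the 6 though no male array measured it. Its overlap in males and between control groups rests on male signals below background.

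Likeness over the 15 arrays was taken for the 4 members measured on all of them, against 12619 genes. Closest to Maoa were Tor3a (r 0.85), Cpne8 (0.84) and Cdca3 (0.82). Maob lay closest to Rbbp7 (0.98), Coq7 (0.97) and Epdr1 (0.96), with 0.93, 0.93 and 0.91 within slides. Ddc lay closest to Cdc25b (0.89), Spink4 (0.87) and Gpr182 (0.86), with 0.83, 0.87 and 0.83 within slides. Slc18a2 had the largest loss within slides: Cops2, Esco1 and Mis18a gave 0.93, 0.92 and 0.92 over all arrays and 0.63, 0.81 and 0.73 within slides. The arrays share slides, trials and scaling, and these correlations carry no test.

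Other genes of the same pathways were counted from lists. Of synthesis and cofactor genes 12 were tested: 1 passed in males and 1 for the mean of both sexes, both times Cyb561, and 0 in the other comparisons (limma, 5, 1, 2, 3 and 2 at an unadjusted p under 0.05 over the 5 comparisons). Those counts and the like counts of the lists that follow stand beside 12.8%, 11%, 8.67%, 15.3% and 15.2% of all probes in the same order. Their median difference was -0.08 in males and 0.03 in females, beside -0.03 and 0.00065 over all probes. Of 6 transport genes 0 passed in any comparison (limma, 1, 0, 0, 0 and 1 unadjusted), with medians of 0.13 and 0.06. Of 16 breakdown genes 2 passed in males, 0 in females, 0 for male minus female, 3 for the mean of both sexes and 0 between control groups (limma, 5, 3, 3, 5 and 6 unadjusted), with medians of 0.05 and 0.08. Aoc1 was 1 of those genes in males and for the mean, and it entered the test through male meth arrays alone.

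Cyb561 encodes cytochrome b561, which passes electrons into chromaffin and synaptic vesicles to keep ascorbate reduced for dopamine beta-hydroxylase. Male meth hearts read 1.45 and 1.42 in trial 1 and 1.54 and 1.31 in trial 2. Male PBS hearts read 1.07 and 1.14 in trial 1 and 0.89 and 0.93 in trial 2. Female meth hearts read 1.41, 1.29, 1.41 and 1.39, against 0.85, 0.90 and 1.16 in female PBS. Every meth heart of either sex lay above every control heart, and meth was higher in 6 of 6 within-slide comparisons. The difference for Cyb561 was 0.42 in males (limma, adjusted p 0.0340), 0.41 in females (limma, adjusted p 0.0631) and 0.41 as the mean of both sexes (limma, adjusted p 0.00439). The male call was lost under 14 of 30 settings: the adjusted p was 0.0869 with the replicate block, 0.184 with normexp correction and 0.0781 with no filter on dim probes, and leaving out any one of the 8 male arrays put it between 0.0609 and 0.125. Normexp correction put the adjusted p of the mean at 0.0718.

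Aldh1a1 encodes an aldehyde dehydrogenase that clears the aldehydes monoamine oxidases produce and also makes retinoic acid. Male hearts given meth read 3.10 and 3.63 in trial 1 and 3.06 and 3.11 in trial 2. Male controls read 2.66 and 2.65 in trial 1 and 2.38 and 2.23 in trial 2. Female meth hearts read 2.76, 2.32, 2.49 and 2.66, against 2.22, 2.27 and 2.32 in female PBS. The lowest male meth heart, 3.06, lay above the highest male control, 2.66, the female groups met at 2.32, and meth was higher in 6 of 6 within-slide comparisons. For Aldh1a1 the difference was 0.75 in males with a standard error of 0.12 (limma, adjusted p 0.00922) and 0.29 in females (limma, adjusted p 0.409). The male call was lost under 5 of 30 settings, among them the replicate block (adjusted p 0.0513) and normexp correction (adjusted p 0.0724). The mean of both sexes was 0.52 (limma, adjusted p 0.00812), or an adjusted p of 0.0753 with normexp correction, and the male minus female difference was 0.46 (adjusted p 0.512).

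Aldh1b1, a mitochondrial aldehyde dehydrogenase, passed for the mean of both sexes at 0.34 (limma, adjusted p 0.0439; adjusted p 0.130 with the replicate block). Male meth hearts read 1.56 and 1.47 in trial 1 and 1.41 and 1.38 in trial 2. Male PBS hearts read 0.91 and 0.98 in trial 1 and 1.46 and 1.32 in trial 2. Female meth hearts read 1.08, 1.19, 1.13 and 1.07, against 0.86, 0.75 and 0.60 in female PBS. The male difference lay in trial 1, with the trial 2 hearts mixed, and the female groups were apart, as they were for 9.07% of all probes. The call for Aldh1b1 was lost under 19 of 27 settings. Leaving out any one of 13 arrays, all but male meth trial 2 replicate 2 and male PBS trial 2 replicate 1, put its adjusted p between 0.0507 and 0.0955, and normexp correction put it at 0.864.

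Aoc1 encodes the diamine oxidase that oxidizes histamine and putrescine. It was measured in 3 of 4 male meth hearts, at -4.75, -2.68 and -4.30, and in 0 of 4 male PBS hearts, 0 of 4 female meth hearts and 0 of 3 female PBS hearts. The meth heart of trial 2 replicate 1 was below background at -5.45. Male meth was at least 1.61-fold higher than male PBS. Since Aoc1 was tested only because those 3 male meth arrays measured it, its adjusted p (limma, 0.0261; 0.0658 with the replicate block) describes the fit and supports no call. Raising every signal to the lowest one well above background took the adjusted p of Aoc1 to 0.452, and normexp correction took it to 1.00. Leaving out any one of 6 male arrays, all but male meth trial 1 replicate 1 and trial 2 replicate 1, put it between 0.0503 and 0.0895.

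**Figure D3:**
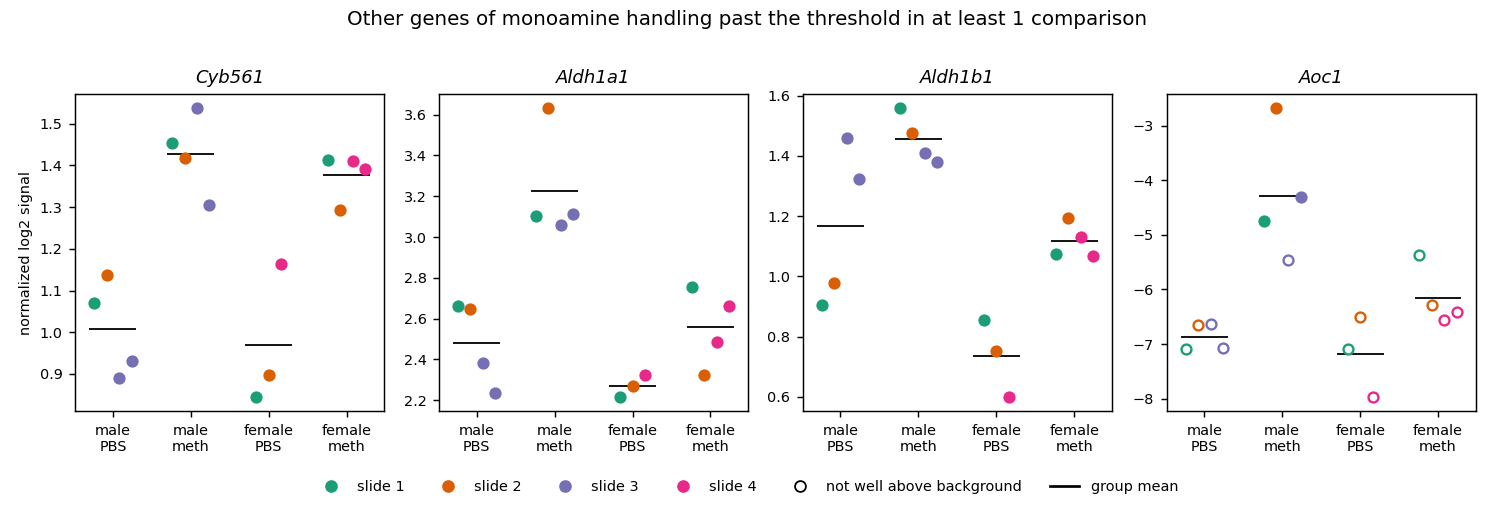
Levels of related pathway genes on each array. Cyb561 lay between 1.29 and 1.54 in all meth hearts and between 0.85 and 1.16 in all PBS hearts.

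Nerve markers gave no count past the threshold apart from 1 Schwann cell gene. Of 20 sympathetic neuron genes 13 were tested and 0 passed in any comparison (limma, 2, 0, 0, 1 and 3 at an unadjusted p under 0.05), with medians of 0.17 in males and 0.35 in females. Their list means were -3.48 in male meth, -3.61 in male PBS, -3.21 in female meth and -3.54 in female PBS. Gap43, Snap25, Chrna3, Ret, Scg2 and Isl1 were detected on no array. Of 4 cholinergic genes Chat was measured on 3 arrays and tested, with 0 calls (limma, 0 unadjusted in each comparison). Of 7 Schwann cell genes 1, Kcna1, passed for the mean of both sexes at -0.61 (limma, adjusted p 0.0272; adjusted p 0.0821 with the replicate block), lower with meth in 6 of 6 within-slide comparisons. The share of all probes lower in 6 of 6 was not taken. Over the list 5 of 7 genes were higher with meth in that comparison, the medians were 0.02 in males and -0.02 in females, and limma gave 2, 1, 1, 2 and 0 at an unadjusted p under 0.05. Leaving out female PBS replicate 1 or 2, male meth trial 2 replicate 2, or either male PBS heart of trial 2 put the adjusted p of Kcna1 between 0.0563 and 0.0759, and normexp correction put it at 0.0753. Nerve growth factor genes gave 0 of 5 (limma, 1, 0, 0, 0 and 1 unadjusted).

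Mast cells and platelets store amines through the transporter that Slc18a2 encodes. Of 6 mast cell genes 0 passed (limma, 0, 1, 0, 2 and 0 unadjusted), with medians of 0.23 in males and 0.23 in females and list means of -1.26 in male meth, -1.50 in male PBS, -1.01 in female meth and -1.27 in female PBS. Of 6 platelet genes 0 passed (limma, 0 unadjusted in each comparison), with medians of 0.22 and 0.15. Their list means were -0.89, -1.13, -1.07 and -1.22 in the same order of groups. Their part in the Slc18a2 and Ddc differences was not tested.

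Markers of tissue beside heart muscle moved with the groups. Of 11 airway epithelium genes tested 9 passed in males, 2 in females, 7 for male minus female, 8 for the mean of both sexes and 1 between control groups (limma). With the replicate block both female calls were lost, Bpifa1 at an adjusted p of 0.0732 and Reg3g at 0.128, and so were all 7 for male minus female. Reg3g in females was lost under 21 of 29 settings. With normexp correction the Scgb1a1 call between control groups went to an adjusted p of 0.0664. The same setting put the mean calls of Foxj1 and Tspan1 at 0.725 and 0.0650. Leaving out male meth trial 1 replicate 2, either male PBS heart of trial 1 or male PBS trial 2 replicate 1 put the male Krt18 call between 0.0535 and 0.0645. No PBS array measured Bpifa1 or Reg3g, Foxj1 was measured in male meth hearts alone, and Ltf and Tspan1 were each measured on 1 PBS array. These 5 genes were tested only through the groups where they are high, and their calls, which are part of the counts, support nothing further. Their list mean per array was 0.65, 2.16, 0.23 and 1.03 in male meth and from -4.75 to -4.64 in male PBS. In female meth it was -2.20, -3.49, -3.39 and -2.19, and in female PBS -3.91, -3.78 and -3.59. Bpifa1, Ltf, Reg3g, Foxj1 and Tspan1 were measured on no male PBS array. The male meth heart highest for this list, trial 1 replicate 2, was also highest of all arrays for Aldh1a1, Aoc1 and the fat (4.28), platelet (-0.15) and atrium (8.01) lists, and highest among male meth hearts for Maob, Slc22a3 and the first Ddc probe, not the second. With 5 genes at their bound, the median male difference was 5.02, and the female median was 0.37. Of 4 pulmonary neuroendocrine genes tested 0 passed (limma, 0, 0, 0, 0 and 1 unadjusted), and Calca, Resp18, Scg5, Pcsk1 and Insm1 were detected on no array. The part of airway tissue in any difference above was not tested.

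Of 7 fat genes tested 1 (Cfd) passed in males, 0 in females, 0 for male minus female, 3 (Cfd, Cidec and Retn) for the mean of both sexes and 0 between control groups (limma, 4, 5, 0, 5 and 4 unadjusted). Their list means were 3.01 in male meth, 2.12 in male PBS, 2.90 in female meth and 1.83 in female PBS, with medians of 1.05 in males and 1.18 in females. The male Cfd call was lost under 22 of 30 settings (adjusted p 0.144 with the replicate block), and with the replicate block the mean response of Cfd, Retn and Cidec had adjusted p-values of 0.0622, 0.0703 and 0.125. Of 3 liver genes tested 1 (Ahsg) passed for the mean of both sexes, 2 (Alb and Fgb) between control groups and 0 elsewhere (limma, 1, 1, 0, 1 and 2 unadjusted), with list means of -3.79, -4.02, -1.84 and -1.49. Ttr was detected on no array, Serpina1a had no probe, and Alb was at least 7.75-fold higher in female PBS than in male PBS. Alb and Fgb were measured on female arrays alone and were tested only through them, so the male liver list means rest in part on signals below background. Their calls support nothing further, the Fgb call being lost under 16 of 25 settings and the Alb call with normexp correction (adjusted p 0.372). Of 4 atrium genes 0 passed (limma, 1, 2, 0, 2 and 4 unadjusted). Their means were 7.74, 7.58, 7.45 and 7.03 in the same order, with male PBS minus female PBS at a median of 0.52. None of 8 cardiomyocyte genes passed (limma, 0, 0, 0, 0 and 2 unadjusted), with medians of -0.08 and 0.05. How much fat, liver or atrial tissue contributed to Ddc, Slc18a2, Slc22a3 or Maob differences was not tested.

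**Figure D4:**
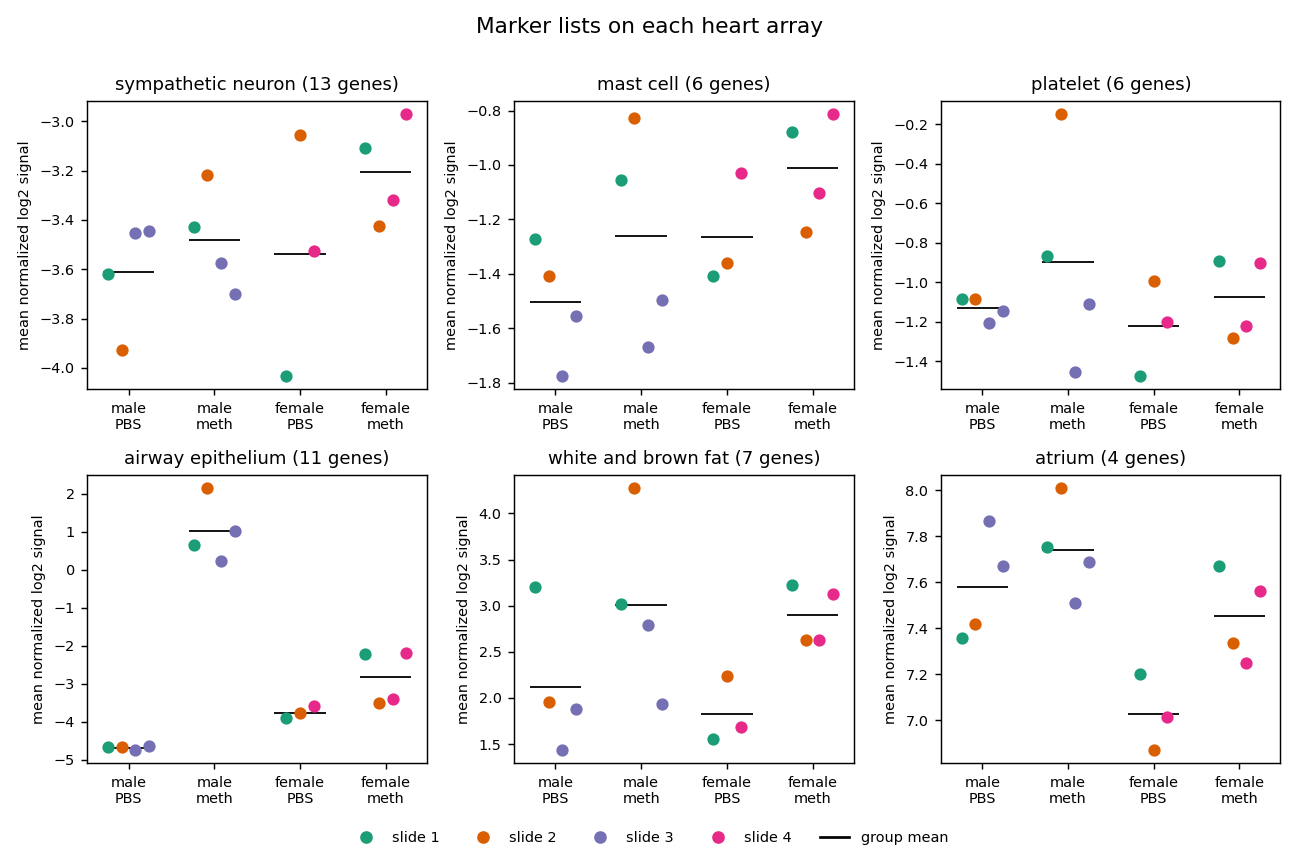
Mean level of marker lists on each array. Airway epithelium averaged 1.02 in male meth and -4.68 in male PBS hearts, where 5 of its genes were below background on every array.

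Maoa, Maob, Ddc and Slc18a2 were thus measured in every heart, and the noradrenergic genes Th, Dbh and Slc6a2 in few. Ddc was higher with meth in 5 of 6 within-slide comparisons, where 13.4% of all probes were higher in at least 5, Slc18a2 was too at both of its probes, with the male groups intermixed at the first, Slc22a3 was lower with meth in male trial 2, and Maob and Slc22a3 were brighter in male than in female controls, none of them past the threshold with the trial taken from the title. Among related genes Cyb561 and Aldh1a1 passed for meth in males and for the mean of both sexes and Aldh1b1 for the mean, with the male Cyb561 call lost under 14 of 30 settings, the male Aldh1a1 call under 5 of 30 and the Aldh1b1 call under 19 of 27. Normexp correction ended the mean calls of Cyb561 and Aldh1a1 (limma, adjusted p 0.0718 and 0.0753). Airway list means were 1.02 in male meth and -4.68 in male PBS. Of the airway genes, 5 were below background in every male PBS heart and were tested only through the groups where they are high. Over the 6 airway genes measured in both male groups the median difference was 3.35. Fat list means were 3.01 in male meth and 2.12 in male PBS. The part of those tissues in the Cyb561, Aldh1a1 and Aldh1b1 differences was not tested.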

How the data were processed

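RNA from 15 mouse hearts was measured on Agilent 1-color arrays. The authors deposited 1 Feature Extraction file per array, with signal as intensity per spot, and a table of normalized log2 values. The submitters' processing notes name Feature Extraction 9.1, and the file headers name 10.5.1.1. The deposited log2 table equals the log2 of the software's processed intensity plus a constant per array, with a largest deviation of 3.00e-06. How the authors chose that constant is not stated. With it the array's 75th percentile lay between 8.391 and 8.396 on every array, and only differences between arrays are used here.

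Processed signals of 43379 non-control spots were set to log2, averaged over the spots of each of 41174 probes and shifted by the array's 75th percentile. Percentile signals were 312.7 to 336.3 on slide 1, 306.9 to 347.8 on slide 2, 311.0 to 402.7 on slide 3 and 438.0 to 588.7 on slide 4, and 0 spots were saturated. Between 61.3% and 71.4% of probes were well above background by the software's call, and probes so called on at least 3 arrays were tested (28358). Gene names came from each probe's transcript accession (26918 probes, 18350 genes).

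Differences were fitted with limma 3.58.1 (R 4.3.3) on all 15 arrays with terms for group and for trial as the title gives it, with Benjamini-Hochberg adjustment over all 28358 probes and a threshold of 0.05. The code was tested on simulated data. The male minus female response is the interaction term. The female meth and PBS arrays of 1 replicate number share a slide, and their deviations from the group mean correlated at 0.30, 0.44 and 0.66 over 23808 probes. They were counted as paired in the replicate block. The main fit has no term for pairing or slide, and both were tried as blocks. Replicate 1 of one group and replicate 2 of the other, on different slides, correlated at 0.63 and 0.54, so the number does not give the closest match there. Female meth replicate 4, without a control of its number, correlated at 0.63 with female PBS replicate 3 on slide 4. Female arrays of slide 4 correlated negatively with those of the other slides, so slide, scan session and pairing cannot be told apart by these values. Male arrays of 1 number share a slide too, and they correlated at -0.085 in trial 1 and 0.0099 in trial 2. With 2 arrays per group in a trial, arrays of unlike number must give the same value with opposite sign. These values therefore cannot show whether the male arrays are paired, and they were not counted as paired. The pairing was read from the titles and the slides, since the methods name a paired test without naming pairs.

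The 9 members are given by their probe with the highest mean, and the other probes are reported too. Of the lists, genes past the threshold in any comparison could be named, up to 30 in order of adjusted p, and otherwise the brightest 3. Members and lists were chosen with earlier results of these data known. Of the genes first listed, 2 are not analysed here. Settings tried in turn were normexp correction of background at an offset of 50 (on median pixel signals, since the files hold no mean pixel signal), quantile and median scaling, the deposited log2 table, other filters, a floor, other terms for trial and slide, a replicate block, each sex alone, the methods' t-test, the mean over a member's probes, and leaving out each array.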

Additional observations from a re-analysis of the deposited data

Results flagged for a closer look

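A single heart stood apart from the rest of its group for 2 of the 56 groups of 4 arrays examined, where chance gives about 1 in 20. For Slc22a3 it was male PBS trial 2 replicate 2 at -2.862, with the nearest control at -3.69. For Aldh1a1 it was male meth trial 1 replicate 2 at 3.632, with the nearest meth heart at 3.114.

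The response to meth differed between the sexes by limma's interaction term for 7 of the 26 members and list genes examined, all of the airway epithelium list, and for 39 probes over the whole array. Of those 26 genes 20 were named for passing the threshold in some comparison, this one included, so the share of them is no result. The fitted male minus female difference was 10.77 for Scgb1a1 (adjusted p 0.000147), 7.355 for Bpifa1 (adjusted p 0.00810) and 6.789 for Ltf (adjusted p 0.00780). It was 6.277 for Tspan1 (adjusted p 0.0138), 4.566 for Scgb3a1 (adjusted p 0.0102), 4.527 for Cyp2f2 (adjusted p 0.0138) and 3.367 for Foxj1 (adjusted p 0.0102). Bpifa1, Ltf, Tspan1 and Foxj1 were below background in every male PBS heart and Scgb1a1 in 2 of 4, so their fitted sizes rest on signals near background. Bpifa1, Ltf, Tspan1 and Foxj1 were tested only through the groups where they are high, and normexp correction took the adjusted p of Ltf to 0.234 and those of Tspan1 and Foxj1 to 1.00. Without female PBS replicate 1 or 3 the adjusted p of Tspan1 was 0.0571 or 0.0511, and without female PBS replicate 2 that of Cyp2f2 was 0.0591. Foxj1 was measured in the 4 male meth hearts and in no other, and raising every signal to the lowest one well above background took its adjusted p to 0.426. With the replicate block 0 probes passed for this comparison by limma, against 4155 at an unadjusted p under 0.05.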

How the results depend on the processing

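The 26 log2 differences of members were recomputed under 30 settings, which gave 724 values, and 673 kept their direction and side of the threshold. For 16 of the differences no setting turned the direction, among them Ddc and Slc22a3 in males.

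One value crossed the threshold: with the trial taken from the source name Maob passed between male PBS and female PBS, so 1 member passed there (0.68, adjusted p 0.0446). The direction turned in 50 values of 10 differences, and the cause was not tested. For Maoa the male minus female response was -0.020 with normexp correction, -0.088 with median scaling, -0.014 with slide as a block and -0.018 with the replicate block, and male PBS against female PBS was 0.10 with median scaling. For Maob the female response was -0.018 with quantile normalization. For Ddc the male minus female response was -0.0035 with quantile normalization, -0.075 with median scaling, -0.012 with the source-name trial and -0.014 with slide as a block, and the control groups differed by 0.015 and 0.073 with quantile and median scaling. For Slc18a2 the control groups differed by -0.00037 with the deposited table, -0.17 with no trial term, -0.14 with the source-name trial and -0.097 with the mean over probes, and that mean put the male response at 0.11.

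Leaving out each array in turn gave the following lowest and highest values. Maoa ran from -0.046 to 0.15 in females, -0.087 to 0.10 for male minus female and -0.078 to 0.086 between control groups. Maob ran from -0.20 to 0.20 in females. Ddc ran from -0.10 to 0.17 for male minus female and -0.18 to 0.088 between control groups. Dbh ran from -0.29 to 0.59 in females and Slc22a3 from -0.051 to 0.31 in females. Slc18a2 ran from -0.065 to 0.048 in males and -0.022 to 0.033 between control groups.

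Genome-wide counts ranged from 0 to 525 in males, 0 to 411 in females, 0 to 51 for male minus female, 123 to 1253 for the mean of both sexes and 23 to 236 between control groups. Median scaling moved the median over all probes by 0.12 between control groups and by -0.11 for male minus female. The replicate block changed no call other than those given beside their results. Female meth replicate 4 has no control of its number, so the block's female values rest on the other female arrays. For Reg3g in females the block and leaving out that array both gave 2.997. The replicate block could not be estimated between control groups, and fitting each sex alone and the methods' t-test serve only comparisons within a sex. Signals near background limit Slc22a3 and Dbh, and 3 of the 9 members gave no fold change at all.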

Other observations

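At the first Slc18a2 probe all 4 male hearts of trial 2 read from -2.0 to -1.72, below the 4 male hearts of trial 1, which read from -1.67 to -1.44. At the second probe the trials overlapped, with male meth trial 2 replicate 2 at -3.05 and male PBS trial 1 replicate 1 at -3.08. Trial, slide and scan session coincide for these arrays and cannot be told apart. For Maob the 3 female arrays of slide 4 read 2.77, 2.37 and 2.37, below the 4 female arrays of slides 1 and 2, which read from 3.04 to 3.30.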
